A study of Homo sapiens with 2 samples.

Results

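The endoplasmic reticulum (ER) folding and quality control genes form a group of 32 genes: the chaperones, disulfide enzymes and translocon subunits of the ER, the degradation machinery for misfolded ER proteins, and the stress sensors that control them. They were chosen by name from a list of the ATF6 and XBP1 arms of the unfolded protein response, with earlier results of these data known. Of the 32, 31 carried the listed name, and ERO1L was found under its newer symbol, ERO1A. They stand among 15603 genes with values in the deposited table.

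The data are RNA sequencing of A172, an established human glioblastoma cell line, in 2 libraries. The resistant library came from A172-r#6, a clone selected with temozolomide (TMZ), an alkylating drug used against this tumour, and is labelled as kept with TMZ. The parental library came from A172 cells labelled as kept without it. Each group is 1 library and the resistant one is a single clone, so clone, selection and drug exposure cannot be told apart, and no difference below has a replicate check. Expression is in FPKM, a count of fragments divided by transcript length and by library depth, which allows levels to be compared between genes. Depth is unknown.

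Secreted and membrane proteins enter the ER through the Sec61 channel and fold there with the help of Hsp70 and Hsp90 chaperones, lectin chaperones that read sugar chains, and enzymes that form disulfide bonds. Proteins that fail to fold are sent back to the cytosol and destroyed, a route called ER-associated degradation (ERAD). When unfolded proteins build up, 3 sensors respond: ATF6 and IRE1 (encoded by ERN1, which splices XBP1 mRNA into its active form) raise chaperones and ERAD genes, and PERK slows translation and raises ATF4. Many targets of ATF6 and XBP1 carry an ER stress element (ERSE) near their start.

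These elements were searched for first, because a shared element is a reason to read the genes side by side. RefSeq promoters (GRCh38.p14) were found for 30 of the 32 genes, and the 250 bases before each start were read on both strands. A gene counted if any of its promoters held a match. An exact ERSE, which is CCAAT, 9 bases of any kind and CCACG, stood before 7 of the 30 genes (23.3%), against 0.0916% of all 27305 genes with a promoter. The second form, ERSE-II, which is ATTGG, 1 base of any kind and CCACG, stood before 3 of the 30 (10%), against 0.0659% of all genes. The shorter UPRE core, TGACGTGG, stood before TXNDC5 and HYOU1 (6.67%), against 0.780% of all genes. ERSE-II and ERSE both contain the letters CCACG, and the UPRE core overlaps an ERSE-II before HYOU1. The elements of CANX, PDIA6, HSP90B1 and CRELD2, and the UPRE core of TXNDC5, lie inside the annotated gene, before a RefSeq start within it. The genes were chosen as members of the ATF6 and XBP1 arms, many of whose targets carry such elements. The contrasts with all genes therefore follow from that choice and are no result about the 2 libraries. The parts of the elements were also more frequent before the 30 genes. CCAAT stood before 80% of them, against 37.0% of all genes, and CCACG before 70%, against 37.5%. A match is a description of letters, not evidence of binding. The matched elements are shown because their holders differed in level, as given below, with the fixed letters in capitals, each written in the orientation of the motif.

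HSPA5 ERSE, chr9:125241391-125241409: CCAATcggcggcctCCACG
XBP1 ERSE, chr22:28800603-28800621: CCAATcgcggagggCCACG
CANX ERSE, chr5:179698778-179698796: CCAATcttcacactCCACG
PDIA6 ERSE, chr2:10812853-10812871: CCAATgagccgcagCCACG
HSP90B1 first ERSE, chr12:103930216-103930234: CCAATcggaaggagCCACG
HSP90B1 second ERSE, chr12:103930321-103930339: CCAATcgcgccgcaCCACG
CALR ERSE, chr19:12938384-12938402: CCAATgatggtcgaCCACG
CRELD2 ERSE, chr22:49918554-49918572: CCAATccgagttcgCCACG
HYOU1 ERSE-II, chr11:119057380-119057390 and chr11:119057274-119057284, the same letters at both: ATTGGaCCACG
HERPUD1 ERSE-II, chr16:56932025-56932035: ATTGGgCCACG
SDF2L1 ERSE-II, chr22:21642114-21642124: ATTGGtCCACG

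Of the 250-base windows, those of HSPA5 and HYOU1 are shown whole. Both are free of annotated exons on the gene's strand, unlike those extracted for CALR, HERPUD1 and SDF2L1. Both genes encode Hsp70-type ER chaperones with such an element and differed in how far their levels stood apart. The letters run 5′ to 3′ on the gene's strand, which is the minus strand for both, and capitals mark the fixed letters of ERSE in HSPA5 and of ERSE-II, on the opposite strand, in HYOU1.

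HSPA5, chr9:125241344-125241593: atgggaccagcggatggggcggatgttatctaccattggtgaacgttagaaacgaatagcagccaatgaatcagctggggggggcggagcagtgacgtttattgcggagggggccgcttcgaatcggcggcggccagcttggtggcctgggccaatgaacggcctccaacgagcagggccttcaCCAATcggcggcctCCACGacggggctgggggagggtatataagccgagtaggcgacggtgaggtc
HYOU1, chr11:119057206-119057455: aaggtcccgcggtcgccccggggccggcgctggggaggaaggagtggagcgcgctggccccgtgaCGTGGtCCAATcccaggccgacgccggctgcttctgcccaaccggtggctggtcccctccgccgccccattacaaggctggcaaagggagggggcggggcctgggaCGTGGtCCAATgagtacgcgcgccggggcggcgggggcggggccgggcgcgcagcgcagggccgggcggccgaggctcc

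HSPA5 and ERN1 were the only members that differed by a fold of 2 or more between the libraries. The fold of a gene was taken as log2 of (resistant FPKM + 1) over (parental FPKM + 1), with calls made at a fold of 2 or more in either direction, among genes with at least 1 FPKM in either library. All 32 genes passed that filter. By this rule 2 of 32 were called higher, HSPA5 and ERN1, and none lower; of all 13937 tested genes, 4.59% were called higher and 3.82% lower, 8.41% in either direction. The share called higher is near that background. The median log2 fold of the 32 genes was -0.02, beside 0.04 over all tested genes, with 16 genes above 0 and 16 below. Their interquartile range, -0.38 to 0.54, was no narrower than that of all tested genes, -0.31 to 0.38. At a fold of 1.5, 7 were higher and 1 lower, where 14.5% of all tested genes were higher and 12.0% lower. In the authors' deposited table, HSPA5 and ERN1 were also the members with a q-value under 0.05, a threshold chosen here that 5.42% of all tested genes passed as higher and 4.07% as lower. Such a q-value speaks of these libraries only, not of resistance or drug exposure.

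**Figure D1:**
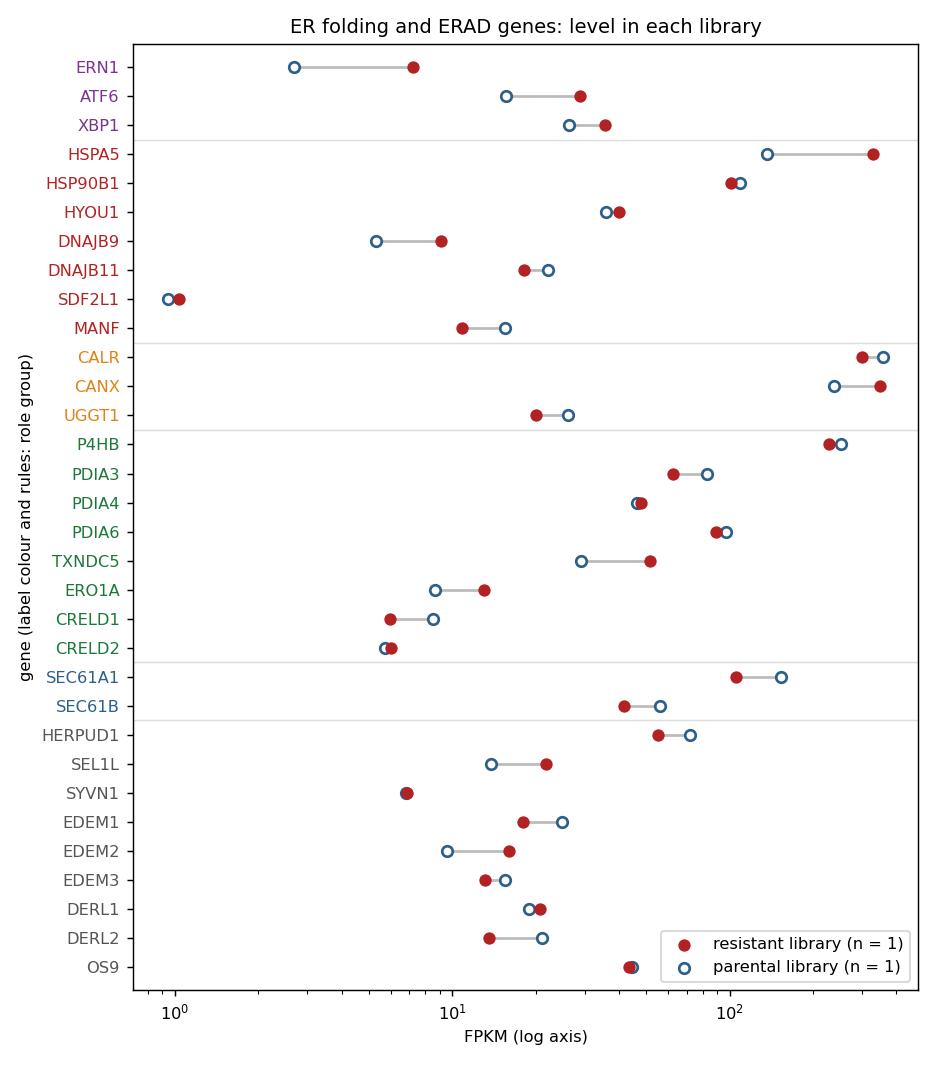
Level of each of the 32 genes in FPKM on a log axis, with the resistant library as filled and the parental library as open circles, grouped by role. HSPA5 (329.5 and 136 FPKM) and ERN1 (7.21 and 2.69 FPKM) show the widest gaps, and many pairs nearly touch.

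ERN1, ATF6 and XBP1 all had higher values in the resistant library, and 1 of the 3 was called. ERN1, the gene of the sensor kinase and RNase IRE1 (ENSG00000178607, chromosome 17, 64039142 to 64130819, GRCh38, minus strand), had 7.21 FPKM in the resistant and 2.69 in the parental library, a log2 fold of 1.15. It was among the least abundant genes of the group in both libraries, and its q-value in the authors' deposited table was 0.00767. ATF6, the sensor that is cut in the Golgi and enters the nucleus as a transcription factor, had 29.0 FPKM in the resistant and 15.6 in the parental library, a log2 fold of 0.85 and under the threshold. XBP1, the transcription factor made active by IRE1, had 35.5 and 26.4 FPKM in the resistant and parental libraries (log2 fold 0.41). These are gene totals, so spliced and unspliced XBP1 mRNA cannot be told apart. The third sensor gene, EIF2AK3, which encodes PERK and is no member, is named after its values were seen: it had 8.56 FPKM in the resistant and 16.4 in the parental library (log2 fold -0.87), the opposite direction to ERN1 and ATF6.

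HSPA5 encodes BiP, the Hsp70 chaperone of the ER lumen that also holds the sensors inactive. HSPA5 (ENSG00000044574, chromosome 9, 125234853 to 125241330, GRCh38, minus strand) had 329.5 FPKM in the resistant library and 136 in the parental one, a log2 fold of 1.27. Its rank among all 15603 genes was 72 in the resistant and 253 in the parental library. It made up 15.6% of the summed FPKM of the 32 genes in the resistant library and 6.97% in the parental one. The sum over all 32 was 2109.7 FPKM in the resistant and 1957 in the parental library; without HSPA5 it was 1780.2 and 1821. The difference of 193 FPKM in HSPA5 alone was larger than that of the summed group. The q-value of HSPA5 in the authors' deposited table was 0.0180.

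The partners of BiP did not share its fold. HSP90B1, the ER Hsp90 GRP94, had 101 FPKM in the resistant and 109 in the parental library (log2 fold -0.11); its near-identical copy HSP90B2P, at 0.180 and 0.669 FPKM, can share its reads. HYOU1, an Hsp70-like nucleotide exchange factor for BiP, had 40.0 and 36.0 FPKM in the resistant and parental libraries (0.15). Among J-domain cochaperones, DNAJB9 had 9.12 FPKM in the resistant and 5.30 in the parental library (0.68), while DNAJB11 had 18.1 and 22.2 (-0.28). SDF2L1, which works with DNAJB11 and BiP, was the least abundant member, at 1.03 and 0.946 FPKM in the resistant and parental libraries (0.06), so it only just passed the filter. MANF, a secreted protein that binds BiP and that is commonly raised by ER stress, had 10.9 FPKM in the resistant and 15.5 in the parental library (-0.47).

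A ratio within 1 library does not depend on scaling between libraries. HSPA5 had a higher fold than each gene it is divided by here, so every ratio had to be higher in the resistant library. The ratios restate these folds in another form and are no further support. HSPA5 had 3.27 times the FPKM of HSP90B1 in the resistant library and 1.26 times in the parental one. Its ratio to CALR was 1.10 in the resistant and 0.382 in the parental library, so that the order of the genes turned. Its ratio to HERPUD1 was 5.99 and 1.89 in the resistant and parental libraries, a 3.17-fold difference and the widest of the 11 ratios computed. The narrowest was that to DNAJB9, 36.1 in the resistant and 25.7 in the parental library, a 1.41-fold difference.

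**Figure D2:**
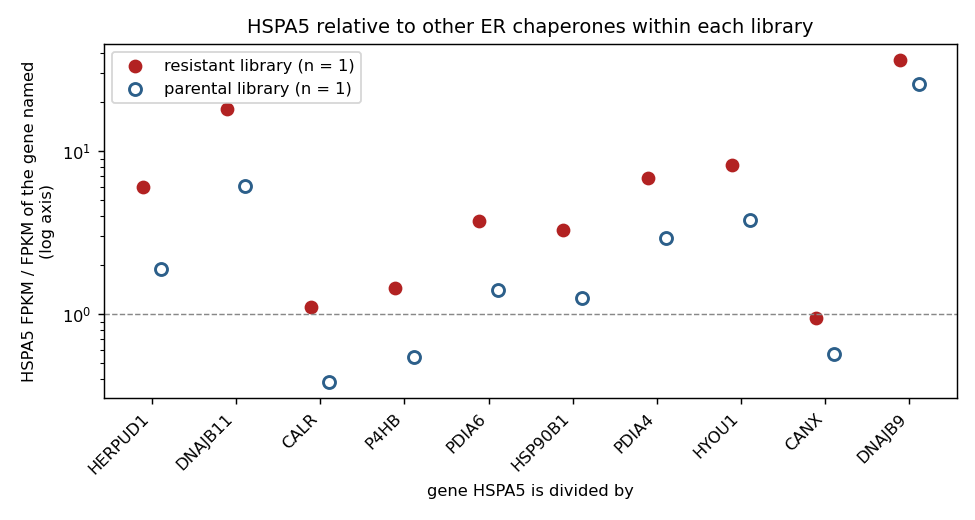
FPKM of HSPA5 divided by that of 10 other ER genes within each library (log axis; resistant filled and left, parental open and right; the dashed line marks equal levels). Every ratio is higher in the resistant library, which follows from HSPA5 having the higher fold of each pair. Those to CALR and P4HB pass 1 in the resistant library (1.10 and 1.45, against 0.382 and 0.542 in the parental one).

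The lectin chaperones went separate ways. CANX, the membrane-bound calnexin, was the most abundant member in the resistant library at 350.1 FPKM and had 238 in the parental one (log2 fold 0.55). CALR, its soluble counterpart calreticulin, was the most abundant member in the parental library at 357 FPKM, against 299 in the resistant one (-0.25). UGGT1, the glucosyltransferase that tags misfolded glycoproteins for another round on these chaperones, had 20.0 FPKM in the resistant and 26.2 in the parental library (-0.37). None of the 3 was called. CALR and CANX thus exchanged places at the top of the group.

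Disulfide enzymes were close to level, with none of 8 called and a median log2 fold of -0.04. The protein disulfide isomerases P4HB, PDIA6 and PDIA4 had folds near 0: P4HB had 228 FPKM in the resistant and 251 in the parental library (-0.14), PDIA6 had 89.0 and 96.7 (-0.12), and PDIA4 had 48.0 and 46.4 (0.05). PDIA3, the isomerase that works with calnexin and calreticulin, had 62.3 FPKM in the resistant and 83.2 in the parental library (-0.41). Its processed copy PDIA3P1, with 2.81 and 2.70 FPKM in the resistant and parental libraries, can share its reads. ERO1A, the oxidase that recharges the isomerases, had 13.0 FPKM in the resistant and 8.63 in the parental library (0.54). CRELD1 had 5.96 and 8.54 FPKM in the resistant and parental libraries (-0.46), and its relative CRELD2, known as an ER stress target, 6.02 and 5.71 (0.07).

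TXNDC5, a thioredoxin-domain isomerase, had the highest fold of the disulfide enzymes, and its value is uncertain. It had 51.6 FPKM in the resistant and 29.2 in the parental library (log2 fold 0.80). The readthrough gene BLOC1S5-TXNDC5 shares 2658 exon bases with it on the same strand and had 0.658 FPKM in the resistant and 20.4 in the parental library, the opposite direction. Summed, the pair had 52.3 FPKM in the resistant and 49.6 in the parental library, a log2 fold of 0.07. How reads were assigned between the pair is not given in the sources used here, and the fold of TXNDC5 is read as uncertain.

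Both translocon subunits had lower values in the resistant library, without being called. SEC61A1, the pore-forming subunit, had 105 FPKM in the resistant and 153 in the parental library (log2 fold -0.54). SEC61B, the small tail-anchored subunit, had 41.6 FPKM in the resistant and 56.3 in the parental library (-0.43). SEC61G, the remaining subunit of the channel and no member, had 73.4 and 123 FPKM in the resistant and parental libraries (-0.73).

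No ERAD gene was called, and the 9 were split, with 4 folds above 0 and 5 below (median -0.04). The ubiquitin ligase complex was uneven: its scaffold SEL1L had 21.7 FPKM in the resistant and 13.8 in the parental library (0.62), while the ligase SYVN1, also known as HRD1, had 6.84 in both (0.00). SYVN1 shares 398 exon bases with FAU on the same strand, and 8 of the 32 members share exon bases with a gene on the opposite strand, where reads cannot be told apart if strand was not used in counting. HERPUD1, a membrane partner of that ligase and a standard marker of ER stress, had 55.0 FPKM in the resistant and 72.1 in the parental library (-0.38). The EDEM proteins, which pick out glycoproteins for degradation, differed in sign: EDEM2 had 16.1 FPKM in the resistant and 9.58 in the parental library (0.69), EDEM1 had 18.0 and 24.8 (-0.44), and EDEM3 had 13.1 and 15.4 (-0.22). The lectin OS9 had 43.3 and 44.7 FPKM in the resistant and parental libraries (-0.04). Of the derlins, thought to form the exit channel, DERL1 had 20.7 FPKM in the resistant and 19.0 in the parental library (0.12). DERL2 had 13.6 and 21.0 FPKM in the resistant and parental libraries (-0.59), the lowest fold of the 32. DERL3, a derlin outside the group, was called lower, at 0.592 FPKM in the resistant and 3.18 in the parental library (-1.39).

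**Figure D3:**
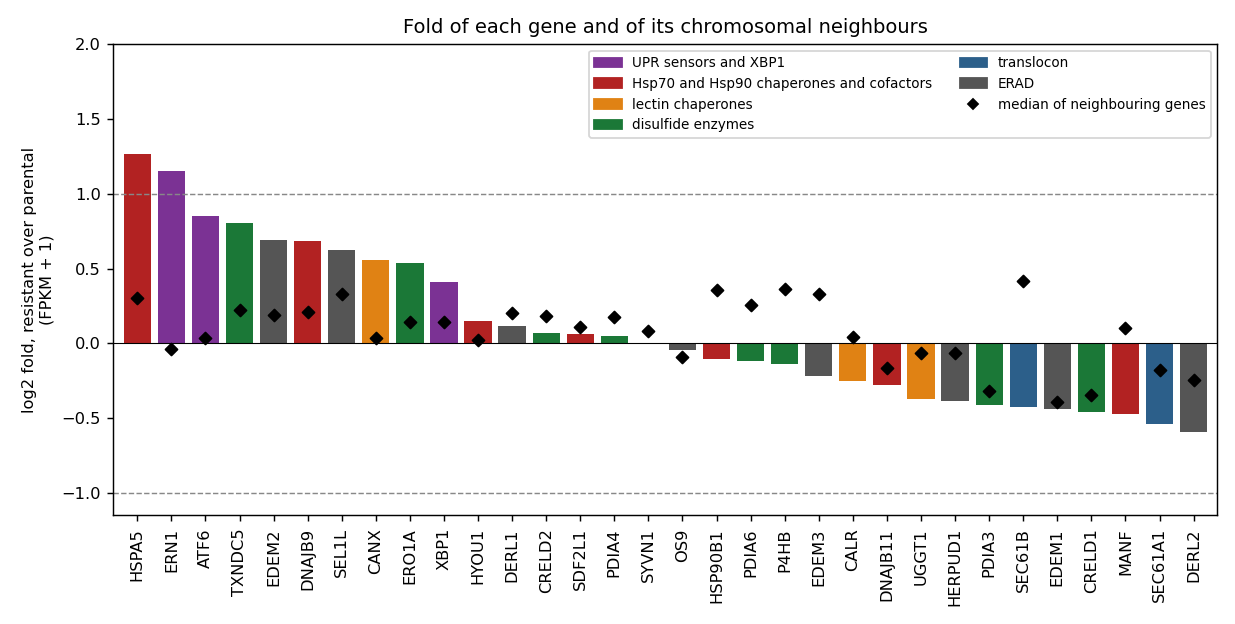
Log2 fold of each gene (bars, coloured by role, resistant over parental on FPKM + 1) beside the median fold of its 20 chromosomal neighbours (diamonds), with dashed lines at 2-fold. HSPA5 (1.27) and ERN1 (1.15) pass the upper line, their neighbours stand at 0.31 and -0.04, and no gene passes the lower line.

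Each gene was set beside its chromosomal neighbours, the 10 nearest tested genes on each side by start position, a comparison chosen after the folds were seen. The fold of HSPA5 was above that of all 20 of its neighbours, whose median was 0.31 and whose highest was 0.67. ERN1 was likewise above all 20 of its neighbours (median -0.04, highest 0.61). HSPA5 and ERN1 had the highest folds of the group, so their place above their neighbours was in part set by that. ATF6 was above 19 of 20 (median 0.04). At the other end, P4HB and MANF were below all 20 of their neighbours, whose medians were 0.37 and 0.10, although neither was called. SEC61B was above 1 of 20 (median 0.42). The genes named in this paragraph were picked for their extreme folds or places.

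The 5 members on chromosome 3 all had negative folds. They were SEC61A1, MANF, CRELD1, EDEM1 and DNAJB11, from -0.54 to -0.28. Over the 780 tested genes of chromosome 3 the median was -0.17 and 63.2% of folds were negative. The part of the chromosome in these values was not tested. The 27 members on other chromosomes had a median of 0.06, with 11 negative.

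The holders of an ER stress element did not move together. Of the 7 genes with an exact ERSE, HSPA5 was called higher and the folds of the other 6 ran from -0.25 for CALR to 0.55 for CANX (median of the 7, 0.07). The 3 genes with ERSE-II had folds of 0.15 for HYOU1, 0.06 for SDF2L1 and -0.38 for HERPUD1. Of the 20 genes with neither element in the window, ERN1 was called higher and the median was -0.09. HSP90B1, with 2 elements, had a fold of -0.11. Outside the group, 19 tested genes had either element, with a median of -0.02. Of these, 1 was called higher and 1 lower, where 4.59% of all tested genes were called higher and 3.82% lower.

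**Figure D4:**
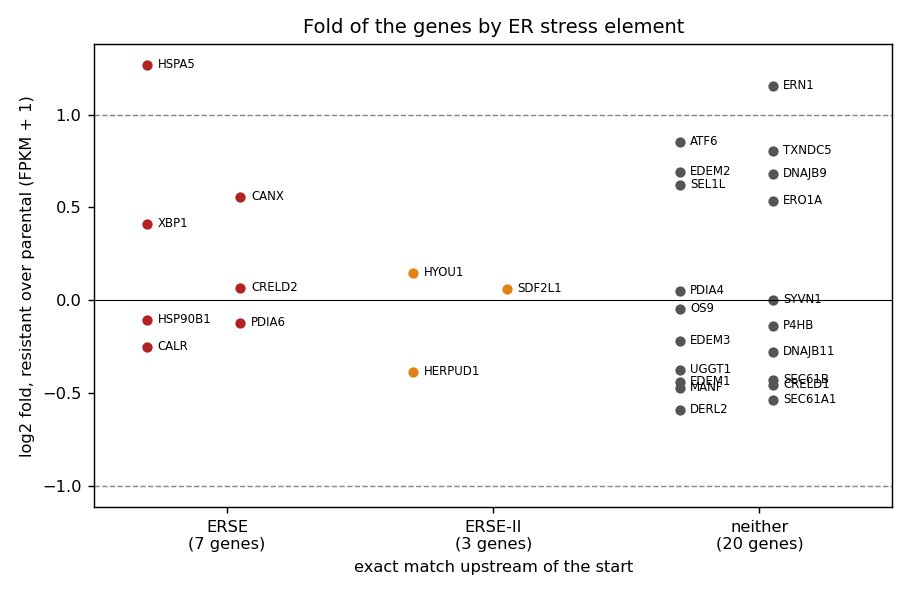
Log2 fold (resistant over parental, FPKM + 1) of the 30 genes with a promoter sequence. They are split by exact ERSE, exact ERSE-II or neither in the 250 bases before a RefSeq start. Within the ERSE column HSPA5 stands at 1.27 and the other 6 genes lie between -0.25 and 0.55.

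The rest of the same pathways was read from 9 further lists, all drawn up with earlier results of these data known. Outside the PERK and ATF4 list, 2 of 137 tested genes were called higher and 4 lower, with a median log2 fold of -0.06. Over all tested genes, 4.59% were called higher and 3.82% lower, the background for each list count here and below. With a pseudocount of 0.1 the counts were 4 higher and 4 lower, PDIA2 (1.58 FPKM in the resistant and 0.559 in the parental library) and ITPR1 being the genes added. In the PERK and ATF4 list 9 of 16 were called higher and none lower, with a median of 1.14; that list was drawn up with the pattern already known and is no independent support. Its widest folds were those of TRIB3, a pseudokinase, with 106 FPKM in the resistant and 23.9 in the parental library, PPP1R15A, which restarts translation, with 38.0 and 11.6, the transcription factor ATF3 with 37.7 and 11.6, and the transcription factor CEBPB with 70.3 and 26.2.

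Single genes stood out from the level lists. QSOX1, a sulfhydryl oxidase that acts late in secretion, had 87.8 FPKM in the resistant and 36.4 in the parental library (log2 fold 1.25) and was called higher among 17 further disulfide enzymes, none of them lower. MAN1A1, a Golgi mannosidase, had 5.56 and 0.764 FPKM in the resistant and parental libraries (1.90) and was the gene called among 19 tested of glycan trimming and transfer. Among 26 further ERAD genes DERL3 was called lower, a call that a filter of 5 FPKM removes, and none higher, with RHBDD1, a rhomboid protease, at 12.6 FPKM in the resistant and 6.42 in the parental library (0.87) and VCP, the ATPase that pulls proteins out of the membrane, at 61.7 and 95.5 (-0.62). None of 18 further chaperones and prolyl isomerases was called, with FKBP14 at 6.04 FPKM in the resistant and 10.1 in the parental library (-0.66). None of 19 translocation genes was called, with TRAM1 at 64.0 and 34.5 FPKM (0.87) in the resistant and parental libraries, and none of 12 further sensor processing genes, with CREB3L1 at 8.40 and 15.0 (-0.77).

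In the list of ER exit 2 genes were called lower, in that of calcium handling 1 was, and none was called higher in either. Of all tested genes, 3.82% were called lower and 4.59% higher. KDELR3, a receptor that returns chaperones to the ER, had 4.03 FPKM in the resistant and 11.6 in the parental library (log2 fold -1.32). SEC13, a coat subunit of vesicles leaving the ER, had 30.0 and 70.1 FPKM in the resistant and parental libraries (-1.20). These were the 2 called of 14 vesicle genes, whose median was -0.19. The inositol trisphosphate receptors differed in direction: ITPR2 had 9.35 FPKM in the resistant and 20.2 in the parental library (-1.03, called lower), ITPR3 had 45.6 and 25.9 (0.80) and ITPR1 had 2.96 and 1.36 (0.75). ITPR2 was the gene called among 12 of ER calcium handling, whose median was 0.11, with 8 folds above 0 and 4 below. With a pseudocount of 0.1 ITPR1 was also called, as higher. SEC13 and ITPR1, with folds in opposite directions, lie on chromosome 3, and KDELR3 and ITPR2 do not.

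Chaperones of other compartments were compared with those of the ER. None of 12 cytosolic chaperones was called, with a median log2 fold of -0.38 over the 12 and of -0.14 over the 10 that pass a filter of 5 FPKM. HSPA8, the constitutive Hsp70 and the widest fold of that list, had 147 FPKM in the resistant and 231 in the parental library (-0.64). HSPA4, named after its values were seen, had 56.6 and 50.8 FPKM in the resistant and parental libraries (0.15). Of the 12 folds, 5 were above 0 and 7 below. Of 8 mitochondrial chaperones and proteases 1 was called higher and none lower, with a median of 0.46, where 4.59% of all tested genes were called higher. HSPA9, the mitochondrial Hsp70, had 229.6 FPKM in the resistant and 108 in the parental library (1.08), and the protease LONP1 had 74.2 and 41.8 (0.81). The call of HSPA9 was lost when the libraries were scaled to equal sums. In the authors' deposited table, 1 of the 12 cytosolic chaperones had a q-value under 0.05, HSPA8 (0.00718, lower). So did 3 of the 8 mitochondrial genes, all higher, among them LONP1 (0.00208). HSPA8 and LONP1 were not called here. Of all tested genes, 5.42% passed that q-value as higher and 4.07% as lower.

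**Figure D5:**
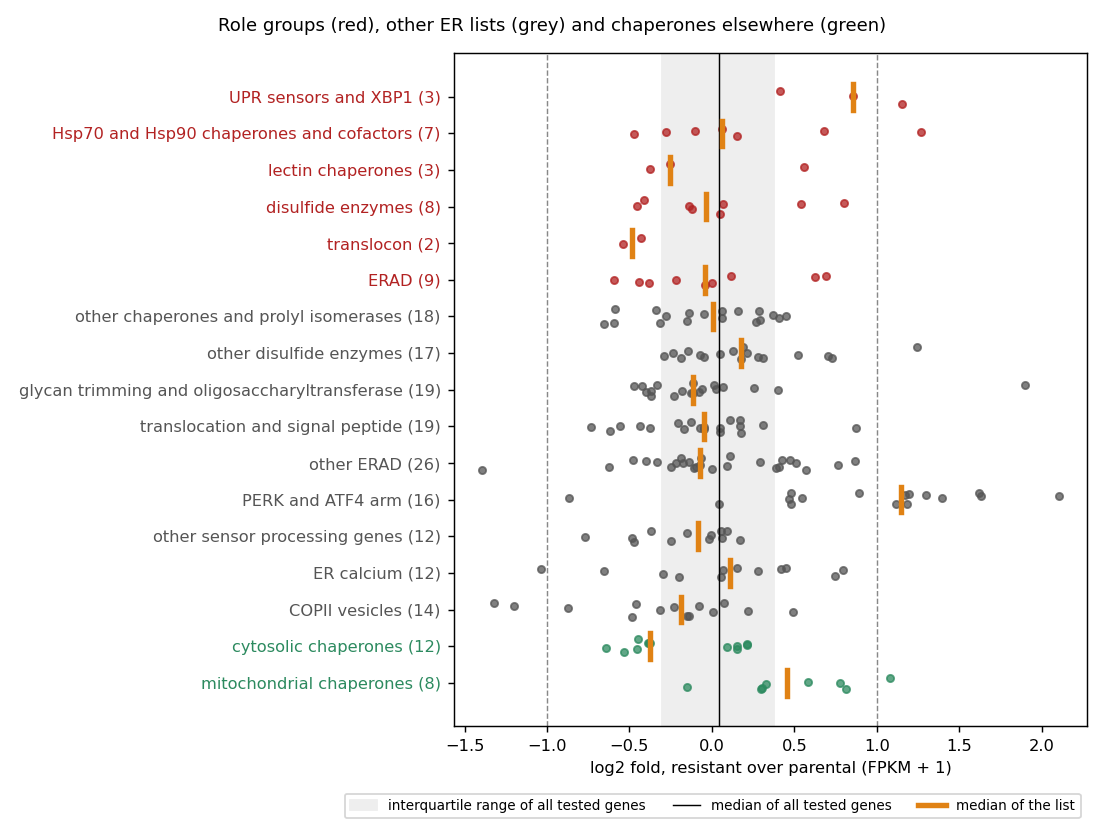
Log2 fold (resistant over parental, FPKM + 1) of each tested gene in the 6 role groups (red), 9 other lists of the same pathways (grey) and 2 lists of chaperones elsewhere (green), with the number tested in brackets, list medians as orange bars and the interquartile range of all tested genes shaded. Dashed lines mark 2-fold. The PERK and ATF4 list (median 1.14) and the group of ERN1, ATF6 and XBP1 (0.85) lie to the right, and the translocon (-0.48) and cytosolic chaperones (-0.38, or -0.14 with a filter of 5 FPKM) to the left.

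The libraries were alike in overall scale, with FPKM sums of 323932 in the resistant and 299594 in the parental library and medians of 7.14 and 6.84. Of 9 markers listed for glial cells and glioma lines, 6 had values. VIM (804 and 632 FPKM in the resistant and parental libraries), SPARC (3856 and 2854) and CD44 (161 and 83.1) were abundant in both. The neural and glial markers differed in direction: NES had 5.08 and 33.7 FPKM in the resistant and parental libraries and SOX2 0.253 and 2.23, while OLIG2 had 3.42 and 1.43; GFAP, S100B and AQP4 were not analysed here. Markers of other cell types were low, with PTPRC of blood cells at 0.485 and 1.83 FPKM, PECAM1 and CDH5 of endothelium at 0.0225 and 0.921 and at 0.141 and 0.583, and EPCAM of epithelium at 0.669 and 0.797 in the resistant and parental libraries. The keratins KRT8 (905 and 213) and KRT18 (702 and 392) were the exception. Fewer expressing cells and less RNA per cell cannot be told apart in such bulk samples.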

How the data were processed

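FPKM per gene were deposited for 1 resistant and 1 parental library, with the authors' log2 ratio, p-values and q-values, per the file headers. Libraries came from a stranded mRNA kit, per the labels' protocols. For the aligner, counting tool, test, strand setting and build, a name is not given in the sources used here. Loci in the table contained the GENCODE release 29 (GRCh38) gene for all 32 members, so those coordinates are given. Genes were joined by the table's name, else by Ensembl identifier of the current symbol.

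Folds, calls and medians were computed with Python 3.11.15 and pandas 2.3.3 and tested on simulated data. No p-value was computed, since each group has 1 library. In low values of single-exon genes, a step that would stand for 1 fragment was sought. With the step that did best, values within 0.1 of a whole number of steps made up 27.0% in the resistant and 26.1% in the parental library, where chance at 1 step gives 20%, so no counts were recovered and depth is unknown.

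All 32 members are named, with up to 4 genes of widest fold in each other list; genes outside this rule are said to be chosen after their values were seen, or stand beside a member for comparison. The members, lists and tests were chosen with earlier results of these data known. Alternatives were the pseudocount, filter, scaling, threshold and members with shared exons.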

Additional observations from a re-analysis of the deposited data

How the results depend on the processing

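HSPA5 and ERN1 stayed called under each of the 8 alternatives of pseudocount, filter, scaling and threshold, with log2 folds from 1.15 to 1.27 and from 1.06 to 1.42. At a threshold of 1.5-fold, 7 members were higher and 1 lower. In the other pathway lists 19 genes were higher and 14 lower, and 3 chaperones outside the ER were higher and 1 lower. Of all tested genes, 14.5% were higher and 12.0% lower at that threshold. These counts were taken with the threshold changed and the other settings kept. With sums scaled to be equal the median log2 fold of the members was -0.15 and 0 chaperones outside the ER were higher; that scaling moved the median of all tested genes by -0.10. With no pseudocount, 4 genes outside the PERK and ATF4 list were higher and 5 lower. CRELD2, PDIA4 and SYVN1, with folds near 0, changed sign under scaling. Without members on chromosome 3, chosen after seeing the data, the median was 0.06; without TXNDC5 and SYVN1, which share exons, it was -0.08. No paired analysis was possible because each group has 1 library and the values come from no test.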
